A study of Mus musculus with 15 samples.

Results

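The organic ion and drug transporters were taken as the protein-coding rows of the gene table whose symbol starts with Slc22a, Slco, Slc47a or Abcc and a number. There were 52 such genes among 21970 protein-coding genes and 56748 genes in all. They comprised 26 Slc22a, 14 Slco, 2 Slc47a and 10 Abcc genes, and 1 further symbol of this form was left out because the table lists it as a pseudogene. RNA was sequenced from whole organs of male wild-type C57Bl/6 mice, with 3 libraries in each of 5 groups. Kidneys came from mice aged 10 to 12 weeks at the start and euthanized at day 28. WTK mice had vehicle in place of folic acid. The labels name no antibody for them and the sources used here do not settle whether they had one. IgGK and LepK mice had a single injection of folic acid at 200 mg/kg, which injures the tubules, and from day 1 control IgG (IgGK) or the leptin-neutralizing antibody LepAb (LepK) every other day for 21 days, at the 10 mg/kg that the study chose. Lungs came from mice aged 12 weeks given bleomycin at 1.5 units/kg into the airways and IgG (IgGL) or LepAb (LepL) at 10 mg/kg every other day for 14 days, with euthanasia at day 14. LepAb is a human monoclonal antibody that binds leptin, the hormone of fat cells. If WTK mice had no IgG, folic acid and IgG cannot be told apart in IgGK against WTK. No lung library without bleomycin was analysed here.

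Solute carriers of the SLC22 and SLCO families bring organic anions, organic cations, carnitine, urate, bile acids, hormones and many drugs into cells, SLC47 carriers exchange organic cations for protons, and ABCC pumps use ATP to export conjugates and nucleotides. In the kidney these proteins are best known from the proximal tubule. Carriers on the blood side take up drugs and waste products there, carriers and pumps on the urine side pass them on, and urate exchangers reclaim urate.

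The blood-side uptake carriers Slc22a6 (OAT1) and Slc22a8 (OAT3) are neighbours on chromosome 19, at 8595403 to 8605663 and 8568618 to 8589199 as the table lists them. Both fell in IgGK and were higher in LepK, so the 120 bases just before their starts of transcription are shown, together with those of Slco4c1, the member called with the antibody in both organs. The sequences are RefSeq's, on build GRCm38.p6, at chr19:8617876-8617995 (plus strand), chr19:8593062-8593181 (plus strand) and chr1:96872172-96872291 (minus strand). They are printed 5′ to 3′, with capitals for the motif described after them.
Slc22a6: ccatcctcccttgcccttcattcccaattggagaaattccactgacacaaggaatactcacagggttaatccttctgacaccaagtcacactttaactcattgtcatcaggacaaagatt
Slc22a8: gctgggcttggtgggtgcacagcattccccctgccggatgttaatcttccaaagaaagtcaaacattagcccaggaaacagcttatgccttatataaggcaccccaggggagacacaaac
Slco4c1: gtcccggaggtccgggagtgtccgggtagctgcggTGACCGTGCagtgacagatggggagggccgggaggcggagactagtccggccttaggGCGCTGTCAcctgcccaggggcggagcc

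The capitals in Slco4c1 are TGACNNNGC, the core of the antioxidant response element, which begins 85 bases before the start on the coding strand and lies 28 bases before it on the other strand. These letters and the HNF4 letters CAAAGTCCA were searched on both strands of windows from 250 bases before to 50 after the start. Windows were found for 41 of the 52 members, 48 windows in all. TGACNNNGC stood in 9 of these 48 windows (18.8%) and in 12.4% of all 32851 windows, and CAAAGTCCA in 0 against 0.475%. The windows of Slc22a6 and Slc22a8 held neither and are printed without capitals. The letters are a description of the windows only.

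Several members stood at high levels in the uninjured kidney. The plot of member levels in kidney gives FPKM (reads scaled by gene length and library depth, as the authors computed them), the scale used here to compare genes. In WTK, 8 members had a mean above 100 FPKM, 7 of them named here. Slc22a12, the apical urate exchanger, was the highest at 528 ± 29.6 FPKM (SD, n = 3), followed by Slc22a18 at 387 ± 11.8 and Slc22a6 at 328 ± 9.19. Slc47a1 (MATE1) had 244 ± 2.96, the cation carrier Slc22a2 had 172 ± 3.84, Slc22a8 had 143 ± 4.37 and Slco1a1 had 125 ± 19.8 FPKM. Slc22a8 and Slco1a1 did not differ beyond their spread. Summed over the 52 members, the 3 WTK libraries held 2901, 2866 and 2712 FPKM, the IgGK libraries 1204, 889 and 1137, and the LepK libraries 2066, 1619 and 1589. The 3 groups did not overlap. The depths behind these FPKM were 1.02 to 1.03 times the count totals in WTK, 1.40 to 1.46 in IgGK and 1.18 to 1.28 in LepK. The sums carry that difference in scaling. In the lung the sum was 100 to 119 FPKM in IgGL and 105 to 112 in LepL, and no member reached a mean of 100 FPKM.

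**Figure D1:**
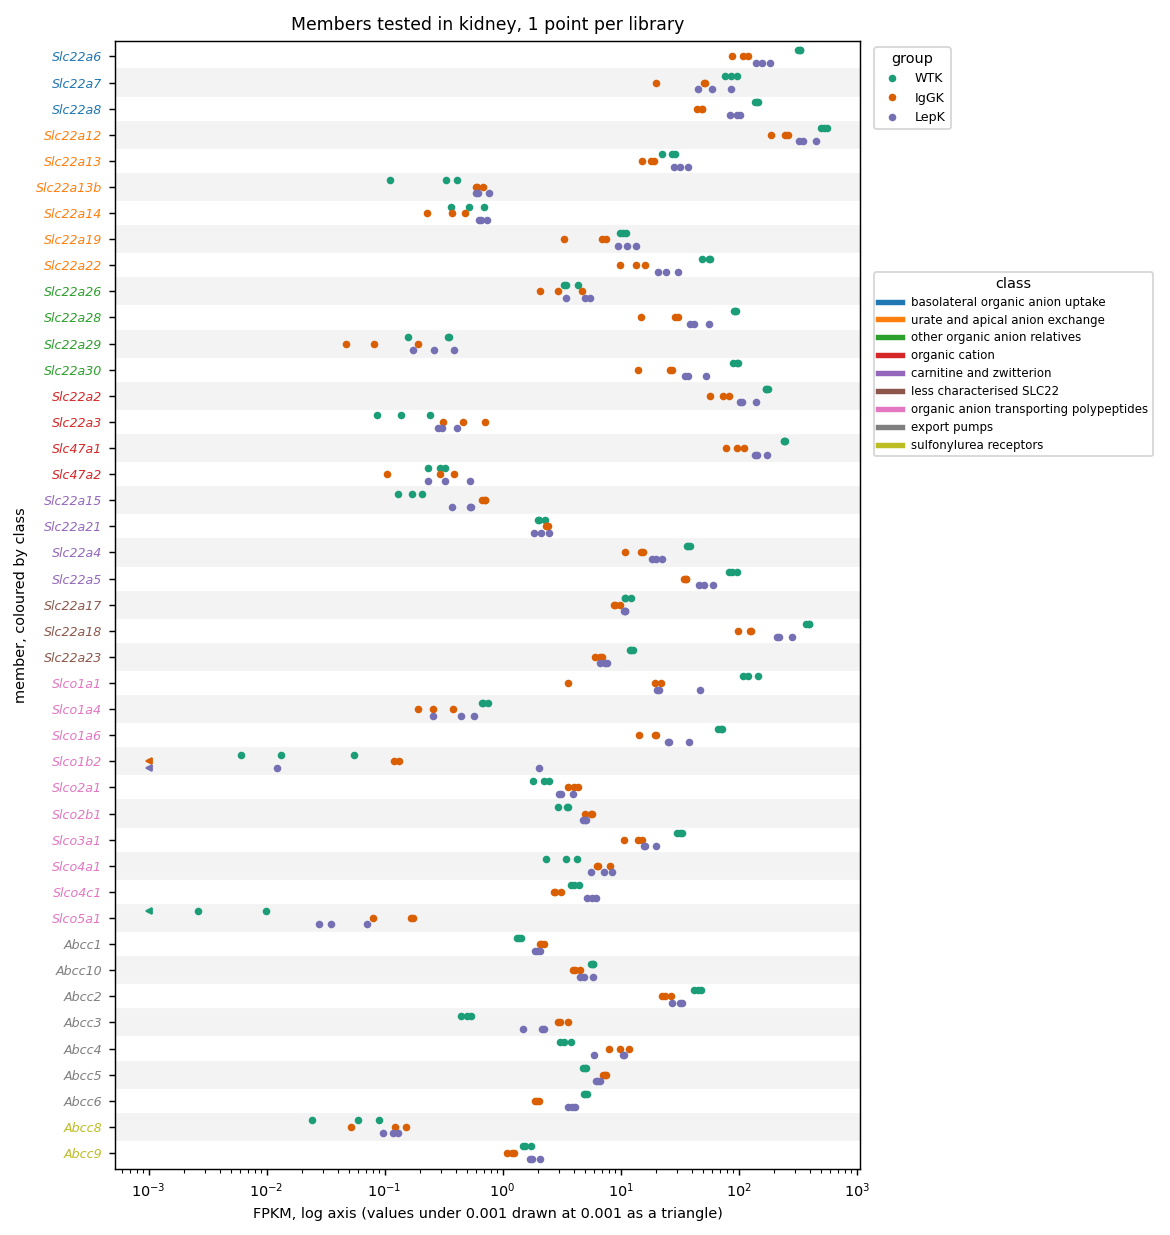
FPKM (log axis) of 43 members tested in kidney, 1 point per library in WTK, IgGK and LepK, with symbols coloured by class. Slc22a12, Slc22a18 and Slc22a6 lie highest in WTK, most members above 10 FPKM lie lower in IgGK, and Abcc3, Abcc4 and Slc22a15 lie higher.

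Of the 52 members, 44 passed the filter on low counts in kidney. The other 8, namely Abcc12, Slc22a16, Slc22a20, Slc22a27, Slco1a5, Slco1c1, Slco6c1 and Slco6d1, reached at most 0.372 CPM (counts scaled to a common library depth, with TMM factors) in any kidney library and were not tested. A gene was called where edgeR's Benjamini-Hochberg adjusted p over all genes tested was under 0.05 and the absolute log2 fold change over 0.5. Depth was 25913969 to 38924788 counts per library. Several libraries stood apart. IgGK 1 and IgGK 2 summed to 504 and 618 CPM over 4 adrenal cortex markers against 5.40 to 14.3 in the other kidneys, and LepK 2 to 1103 CPM over 6 hepatocyte markers against 198 to 268. Proximal tubule markers summed to 27193 to 28805 CPM in WTK, 7119 to 9552 in IgGK and 13202 to 17171 in LepK, and the 14 of them were called down in IgGK against WTK, 9 up in LepK against IgGK and 12 down in LepK against WTK. Injured-tubule markers summed to 547 to 552, 6454 to 6789 and 2671 to 4042 CPM, and macrophage markers to 184 to 209, 1668 to 2118 and 595 to 883. Markers of the distal nephron and collecting duct summed to 4311 to 4329, 2947 to 3467 and 4276 to 4702, with 5 of 8 called up in LepK against IgGK and a median of 0.55. In whole organs, fewer cells of a type and less RNA per cell cannot be told apart, and the part of cell makeup in the results that follow was not tested.

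IgGK against WTK asked what injury does to these genes. In IgGK, 22 members were lower (50% of the 44 tested, against 15.6% of all genes tested) and 11 were higher (25% against 21.7%). The median log2 fold change was -0.67 over the members and 0.04 over all genes. These 33 (75% of those tested, against 37.3% of all genes called in either direction) had groups that did not overlap. So did 62.6% of all genes tested, called or not, which is not a comparable share. With library-size scaling, where the median of all genes moved to 0.48, 17 members were called lower and 13 higher, the calls lost being those of Abcc2, Slc22a7, Slc22a13, Slc22a19 and Slc22a23.

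LepK against IgGK asked what LepAb does in the injured kidney. Here 18 members were higher (40.9% of those tested, against 4.38% of all genes) and 3 lower (6.82% against 5.99%), with a median of 0.56 over the members and -0.01 over all genes. These 21 members (10.4% of all genes were called in either direction) had groups that did not overlap. So did 37.4% of all genes tested, called or not, which is again not a comparable share. The count of higher members was 12 without LepK 1, 16 without IgGK 2 and 10 with IgGK 3 as the sole IgGK library. A test against the fold threshold itself (glmTreat) called 4 higher and 0 lower. Library-size scaling gave 11 higher and 3 lower, with Slc22a4, Slc22a5, Slc22a6, Slc22a12, Slc47a1 and Abcc9 at 0.37 to 0.49 and thus under the fold threshold. LepK 1 was the highest LepK library for 16 of the 18 members, and IgGK 2 the lowest IgGK library for 14 of them. This comparison and the one before share the IgGK libraries, so their values are given side by side below and not correlated.

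LepK against WTK asked what difference from uninjured kidney was left. In LepK, 15 members were lower (34.1% against 7.30% of all genes) and 9 higher (20.5% against 15.2%), with a median of -0.05 over the members and 0.03 over all genes. These 24 members (22.5% of all genes were called in either direction) had groups that did not overlap. So did 50.2% of all genes tested, called or not, which is again not a comparable share. With library-size scaling, which moved the median of all genes to 0.29, the split turned to 8 lower and 14 higher, and Slc22a8, Slc22a18, Slc22a2, Slc22a5, Slc47a1, Slc22a23 and Abcc2 were no longer called lower.

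**Figure D2:**
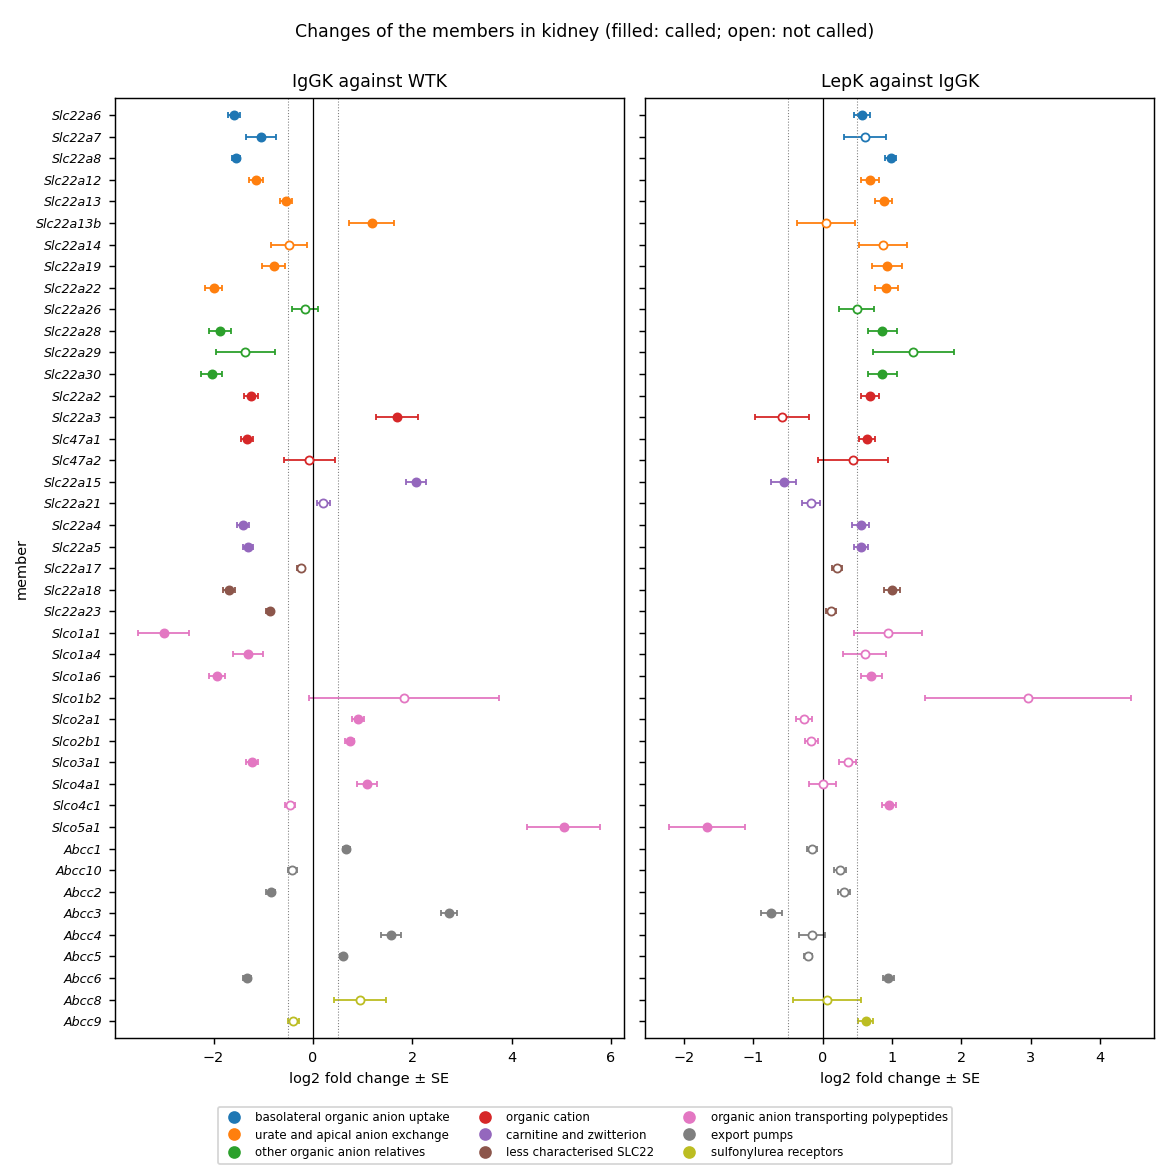
Log2 fold change ± SE of 43 members tested in kidney, IgGK against WTK on the left and LepK against IgGK on the right, coloured by class, with filled points for called members and dotted lines at ±0.5. The panels have different scales and share the IgGK libraries, and most filled points lie below 0 on the left and above 0 on the right.

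All 3 genes of the class of blood-side organic anion uptake, Slc22a6, Slc22a7 and Slc22a8, fell in IgGK. Slc22a6, the classical carrier of para-aminohippurate and many drugs, had 1611, 1600 and 1524 CPM in WTK, 598, 435 and 539 in IgGK and 892, 681 and 769 in LepK. The 3 groups did not overlap and LepK lay between the others. It was 3.01-fold lower in IgGK than in WTK (log2 fold change -1.59, SE 0.12, adjusted p = 3.68e-07), 1.49-fold higher in LepK than in IgGK (0.57, SE 0.12, adjusted p = 0.00481) and 2.02-fold lower in LepK than in WTK. The difference between LepK and IgGK was 0.46 without IgGK 2 and 0.47 without LepK 1, both under the fold threshold.

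Slc22a8, which carries estrone sulfate, diuretics and uremic toxins, had 656, 679 and 694 CPM in WTK, 236, 236 and 214 in IgGK and 484, 464 and 403 in LepK. These groups were apart as well, with LepK nearly midway between the other two. Slc22a8 was 2.96-fold lower in IgGK than in WTK (-1.56, SE 0.08, adjusted p = 3.37e-08), 1.97-fold higher in LepK than in IgGK (0.98, SE 0.08, adjusted p = 5.77e-05) and 1.50-fold lower in LepK than in WTK. Leaving out any single library moved the LepK against IgGK value only between 0.93 and 1.05. Slc22a7 (OAT2) had 249, 218 and 195 CPM in WTK, 133, 52.2 and 136 in IgGK and 222, 152 and 115 in LepK. It fell 2.06-fold in IgGK (-1.04, SE 0.30, adjusted p = 0.0112), while LepK overlapped both other groups (0.61 against IgGK, SE 0.30, adjusted p = 0.186). With library-size scaling the fall was 0.61 on the log2 scale and not called (adjusted p = 0.0823), and with IgGK 3 as the sole IgGK library the value was -0.69 (adjusted p = 0.0729).

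The class of urate and apical anion exchange also held Slc22a22, a blood-side prostaglandin carrier that does not match the name of the class. Of the 6 tested in it, 4 fell in IgGK and 4 were higher in LepK than in IgGK, Slc22a22 among both. Slc22a12 reabsorbs urate at the brush border. It had 1525, 1455 and 1356 CPM in WTK, 739, 530 and 693 in IgGK and 1257, 974 and 906 in LepK, 3 groups without overlap. The fold was 2.21 lower in IgGK than in WTK (-1.14, SE 0.14, adjusted p = 1.39e-05) and 1.60 higher in LepK than in IgGK (0.68, SE 0.13, adjusted p = 0.00415). Slc22a12 overlaps Nrxn2 on the other strand, and the unstranded reads of these genes cannot be told apart there.

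Slc22a13 (OAT10), an exchanger of nicotinate and urate, had 54.6, 69.5 and 65.1 CPM in WTK, 45.0, 37.6 and 47.5 in IgGK and 91.2, 77.8 and 69.7 in LepK. Every LepK library was above every WTK library, by a margin under the fold threshold (0.33, SE 0.12, adjusted p = 0.0395) that library-size scaling moved past it (0.59). LepK was 1.84-fold above IgGK (0.88, SE 0.12, adjusted p = 0.000539), and IgGK was 1.46-fold below WTK (-0.54, SE 0.12, adjusted p = 0.00186). The fall in IgGK was close to the fold threshold, at -0.47 without WTK 2, -0.44 without IgGK 2 and -0.10 with library-size scaling, none of them called.

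Slc22a19 (OAT5) followed a similar order of groups. It had 65.4, 73.1 and 68.8 CPM in WTK, 50.1, 22.5 and 47.1 in IgGK and 89.3, 75.7 and 63.1 in LepK. WTK and LepK overlapped (0.14, SE 0.22, adjusted p = 0.663), and IgGK was below both, by -0.79 against WTK (SE 0.23, adjusted p = 0.00974) and with LepK 0.93 above it (SE 0.22, adjusted p = 0.0119). Without IgGK 2, the lowest library, IgGK against WTK was -0.50 and LepK against IgGK 0.65, both still called.

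Slc22a22 had 165, 168 and 146 CPM in WTK, 48.8, 29.7 and 41.3 in IgGK and 91.0, 62.3 and 72.6 in LepK. It was 3.99-fold lower in IgGK than in WTK (-2.0, SE 0.17, adjusted p = 8.36e-07), 1.89-fold higher in LepK than in IgGK (0.92, SE 0.16, adjusted p = 0.00238) and 2.12-fold lower in LepK than in WTK. Slc22a13b, a near copy of Slc22a13, rose from 0.50 ± 0.271 CPM in WTK to 1.14 ± 0.0900 in IgGK (SD, n = 3, edgeR adjusted p = 0.0434). That call was lost in 5 of the 6 fits that left out 1 library, down to 0.80 without WTK 2. Of 75-base windows of the GENCODE transcripts, 40.0% of those of Slc22a13b also occur in another member, mostly Slc22a13, and 28.7% of those of Slc22a13, so counts could be split between them.

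Slc22a28 and Slc22a30, rodent relatives of the anion carriers in the same chromosome 19 group as Slc22a6, fell more steeply. Slc22a30 had 392, 402 and 366 CPM in WTK, 113, 58.8 and 110 in IgGK and 215, 153 and 144 in LepK. Slc22a28 had 228, 231 and 220 CPM, then 75.5, 36.9 and 72.1, then 137, 95.5 and 102. For both genes the 3 groups were apart and IgGK 2 was the lowest library. The log2 fold changes of Slc22a30 and Slc22a28 were -2.04 (SE 0.21) and -1.88 (SE 0.22) in IgGK against WTK, and 0.86 (SE 0.21) for each in LepK against IgGK, with edgeR adjusted p of 0.0117 and 0.0134. Without LepK 1 the latter were 0.66 and 0.69 and no longer called (adjusted p = 0.0507 and 0.0573). They share sequence, with 44.8% of the windows of Slc22a28 and 29.6% of those of Slc22a30 found in another member, so they are not separate evidence. Slc22a26, the remaining member of this class above 1 CPM, had 13.3 ± 2.0 CPM in WTK and 11.9 ± 4.94 in IgGK and was not called.

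The organic cation carriers moved in both directions in IgGK. Slc22a2 (OCT2) takes cations up from blood in the tubule, Slc47a1 passes them to urine, and Slc22a3 (OCT3) is a widely expressed extraneuronal carrier. Slc22a2 had 531, 509 and 508 CPM in WTK, 252, 177 and 227 in IgGK and 426, 308 and 323 in LepK. Slc47a1 had 1014, 998 and 984 CPM in WTK, 463, 329 and 412 in IgGK and 720, 564 and 588 in LepK. In both genes the LepK libraries lay between the IgGK and WTK libraries, without overlap.

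Slc22a2 was 2.36-fold lower in IgGK than in WTK (-1.24, SE 0.14) and 1.61-fold higher in LepK than in IgGK (0.69, SE 0.13, adjusted p = 0.00369). Slc47a1 was 2.49-fold lower in IgGK (-1.32, SE 0.12) and 1.56-fold higher in LepK than in IgGK (0.64, SE 0.12, adjusted p = 0.00292). The values of the uptake carrier and the efflux carrier lay within 1 SE of each other in both comparisons. Slc22a3 went the other way, from 0.748, 0.474 and 1.33 CPM in WTK to 2.57, 3.97 and 1.76 in IgGK (1.69, SE 0.42, adjusted p = 0.00426), and LepK, with 1.55, 2.28 and 1.70, overlapped IgGK. Slc22a3 and Slc22a2 belong to 1 group of neighbours on chromosome 17. Slc22a3 overlaps Plg there, a hepatocyte gene, and with IgGK 3 as the sole IgGK library its value was 1.04 and not called (adjusted p = 0.178).

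The carnitine and zwitterion carriers also held members of opposite direction. Slc22a5 (OCTN2), which reclaims carnitine, had 307, 359 and 324 CPM in WTK, 137, 135 and 131 in IgGK and 227, 172 and 191 in LepK. Slc22a4 (OCTN1), a carrier of ergothioneine, had 116, 119 and 113 CPM in WTK, 47.0, 34.2 and 49.1 in IgGK and 70.3, 62.3 and 58.1 in LepK. Both were lowest in IgGK and stayed below WTK in LepK. The log2 fold changes of Slc22a5 and Slc22a4 were -1.30 (SE 0.10) and -1.41 (SE 0.12) in IgGK against WTK and 0.55 for each in LepK against IgGK (SE 0.10 and 0.12, adjusted p = 0.00195 and 0.00603), just over the fold threshold. Without LepK 1 the antibody differences were 0.44 and 0.47, and without IgGK 2 that of Slc22a4 was 0.41, all under the threshold.

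Slc22a21 lies between these genes on chromosome 11 and was not called in any comparison, with means of 9.30 ± 0.666 CPM (WTK), 10.8 ± 0.205 (IgGK) and 9.55 ± 1.41 (LepK). Of its windows, 15.9% occur in another member, mostly Slc22a5. Slc22a15, a carrier of carnitine, ergothioneine and other zwitterions on chromosome 3, rose from 2.95, 2.25 and 3.57 CPM in WTK to 12.5, 12.5 and 11.9 in IgGK and had 6.49, 9.32 and 9.27 in LepK. The groups were apart, with a 4.19-fold rise (2.07, SE 0.20, adjusted p = 2.28e-06) and a value 1.47-fold lower in LepK than in IgGK (-0.56, SE 0.18, adjusted p = 0.0482). The latter was lost in 5 of the 6 fits that left out 1 library, where it ranged from -0.64 to -0.40.

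**Figure D3:**
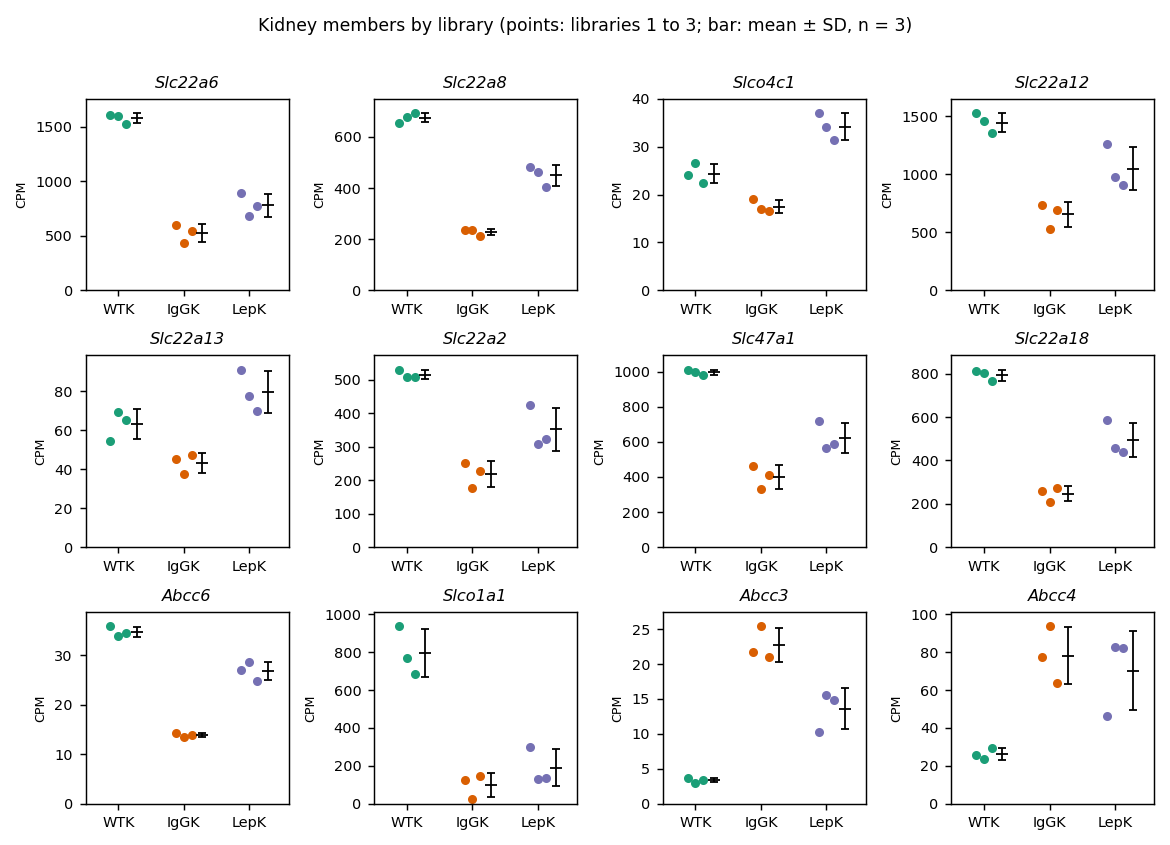
CPM by library for 12 members in WTK, IgGK and LepK, on axes that start at 0, with the mean ± SD (n = 3) as a bar. LepK libraries of Slco4c1 and Slc22a13 lie above all WTK libraries, those of Slc22a8 and Abcc6 lie between the other groups, and those of Abcc4 overlap IgGK.

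Slc22a18, an imprinted gene of chromosome 7 proposed to exchange organic cations for protons, had 815, 803 and 765 CPM in WTK, 261, 207 and 272 in IgGK and 586, 459 and 437 in LepK. Of the 18 members called higher in LepK it had the largest value, 2.0-fold above IgGK (1.0, SE 0.12, adjusted p = 0.000276) and within 1 SE of Slc22a8, Slco4c1, Abcc6, Slc22a19 and Slc22a22, after being 3.22-fold lower in IgGK than in WTK (-1.69, SE 0.12). It remained 1.61-fold below WTK in LepK. Slc22a23, an orphan carrier, fell from 95.3 ± 2.56 CPM in WTK to 52.0 ± 3.52 in IgGK (-0.87, SE 0.07), and LepK overlapped IgGK at 56.7 ± 3.78. Slc22a17, the receptor of lipocalin 2, had 61.6 ± 4.33, 51.7 ± 3.33 and 59.7 ± 0.753 CPM in the 3 groups and was not called.

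The organic anion transporting polypeptides (Slco genes) did not move together, with 4 of the 10 tested lower and 4 higher in IgGK. The rodent group on chromosome 6 held the steepest fall of all members. Slco1a1, a carrier of bile acids and steroid conjugates, had 937, 768 and 684 CPM in WTK, 128, 23.5 and 145 in IgGK and 302, 131 and 138 in LepK. It was 8.06-fold lower in IgGK than in WTK (-3.01, SE 0.52, adjusted p = 0.000328), and -2.54 at the least when 1 library was left out. IgGK and LepK overlapped (0.95, SE 0.49, adjusted p = 0.206).

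Slco1a6 had 328, 331 and 310 CPM in WTK, 92.2, 67.4 and 93.8 in IgGK and 175, 116 and 121 in LepK, without overlap. Its fold was 3.82 lower in IgGK than in WTK (-1.93, SE 0.16) and 1.63 higher in LepK than in IgGK (0.70, SE 0.15, adjusted p = 0.00673), though 0.49 and not called without LepK 1. Slco1a4 fell from 5.46 ± 0.333 to 2.19 ± 0.751 CPM (-1.31, SE 0.31), and LepK overlapped IgGK. Slco1b2, the hepatocyte carrier in the same chromosome 6 group, had 0, 365 and 2 counts in the LepK libraries, and the 365 lay in LepK 2, the library with the high hepatocyte markers. It was not called.

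Slco4c1, the blood-side carrier of digoxin, thyroid hormone and uremic toxins in the proximal tubule, had 24.1, 26.5 and 22.5 CPM in WTK, 19.1, 16.9 and 16.6 in IgGK and 37.1, 34.2 and 31.4 in LepK. Every LepK library lay above every WTK library, and every IgGK library below. LepK was 1.95-fold above IgGK (0.96, SE 0.10, adjusted p = 0.000115), with 0.91 to 1.04 when 1 library was left out. IgGK was 1.39-fold below WTK (-0.47, SE 0.10, adjusted p = 0.00112) and LepK 1.40-fold above WTK (0.49, SE 0.10, adjusted p = 0.00150), each just under the fold threshold and past it in 2 of the 6 fits that left out 1 library. With library-size scaling these values were -0.03 and 0.75, the latter called.

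Slco3a1, which carries prostaglandins and thyroid hormone, fell from 324 ± 17.4 CPM in WTK to 139 ± 24.3 in IgGK (-1.22, SE 0.12), and LepK was 179 ± 23.5 (0.36 against IgGK, SE 0.12, adjusted p = 0.0536). The other 3 Slco genes to rise in IgGK beside Slco5a1 were more abundant. Slco2a1, the prostaglandin carrier of endothelium, rose from 35.8 ± 5.44 to 66.9 ± 6.07 CPM (0.90, SE 0.12), Slco2b1 from 24.2 ± 2.45 to 40.4 ± 3.08 (0.74, SE 0.09) and Slco4a1, a thyroid hormone carrier, from 19.5 ± 5.78 to 41.5 ± 6.14 (1.09, SE 0.20). None of these was called in LepK against IgGK, where Slco2a1, Slco2b1 and Slco4a1 had 55.3 ± 8.29, 36.0 ± 1.20 and 41.4 ± 8.23 CPM in LepK. Slco5a1, a carrier without a known substrate, had 1, 4 and 0 counts in WTK, 39, 100 and 94 in IgGK and 17, 34 and 12 in LepK. Its rise in IgGK was the largest of all members (5.05, SE 0.74, adjusted p = 8.75e-05), with few counts behind it, so the fitted size depends on the prior count. LepK was below IgGK (-1.67, SE 0.55, adjusted p = 0.0478), a call lost without IgGK 2, IgGK 3, LepK 1 or LepK 3, at -1.52 to -1.43.

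Of the 7 export pumps tested, 4 rose in IgGK and 2 fell. Abcc6, whose loss causes ectopic calcification, had 35.8, 33.8 and 34.4 CPM in WTK, 14.3, 13.5 and 13.9 in IgGK and 26.9, 28.5 and 24.8 in LepK, 3 tight and separate groups. It was 2.50-fold lower in IgGK than in WTK (-1.32, SE 0.08, adjusted p = 8.48e-08) and 1.93-fold higher in LepK than in IgGK (0.95, SE 0.08, adjusted p = 6.42e-05). LepK stayed 1.30-fold below WTK, under the fold threshold (-0.37, SE 0.08, adjusted p = 0.00224). Abcc2, the apical pump of conjugates, fell from 464 ± 30.4 CPM in WTK to 257 ± 21.8 in IgGK (-0.85, SE 0.09) and had 319 ± 31.8 in LepK, a difference from IgGK under the fold threshold (0.31, SE 0.09, adjusted p = 0.0275).

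Abcc3, a basolateral pump of glucuronides, rose from 3.70, 3.04 and 3.46 CPM in WTK to 21.7, 25.4 and 21 in IgGK, and LepK had 10.2, 15.6 and 14.9. The rise was 6.68-fold (2.74, SE 0.17, adjusted p = 1.14e-07), LepK was 1.67-fold below IgGK (-0.74, SE 0.15, adjusted p = 0.00517), and LepK was still 3.99-fold above WTK. With IgGK 3 as the sole IgGK library, LepK against IgGK was -0.62 and not called (adjusted p = 0.170). Abcc4, a pump of cyclic nucleotides, urate and prostaglandins, rose from 25.6, 23.7 and 29.5 CPM to 77.4, 93.7 and 63.5 (1.57, SE 0.20, adjusted p = 2.85e-05). In LepK it had 46.2, 82.6 and 82.2 CPM, which overlapped IgGK (-0.15, SE 0.19, adjusted p = 0.630) and gave a difference of 0.08 without LepK 1. The pumps Abcc3 and Abcc4 both stood above WTK in LepK, Abcc4 by 2.67-fold. Abcc1, a glutathione conjugate pump, rose from 25.2 ± 0.994 to 40.2 ± 1.77 CPM (0.67, SE 0.07) and had 36.2 ± 1.60 in LepK (-0.15 against IgGK, SE 0.07, adjusted p = 0.162). Abcc5 rose from 64.1 ± 1.79 to 97.3 ± 2.64 CPM (0.60, SE 0.06).

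The sulfonylurea receptors belong to the family by sequence but form potassium channels and do not pump. Abcc9, the subunit of muscle and pericytes, had 15.2, 15.8 and 17.7 CPM in WTK, 12.9, 12.5 and 11.4 in IgGK and 17.4, 21.2 and 18.0 in LepK. The LepK libraries were above all IgGK libraries (0.62, SE 0.11, adjusted p = 0.00206) and overlapped WTK. Abcc8 was at 0.562 to 1.14 CPM on average and was not called.

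Genes outside the 4 families gave some context. Of 12 partners of urate and anion transport, 11 were called lower in IgGK than in WTK, 6 higher in LepK than in IgGK and 8 lower in LepK than in WTK. Pdzk1, a scaffold of apical exchangers, fell from 474 CPM in WTK to 170 in IgGK (-1.48, SE 0.11), and LepK had 236 CPM. Slc2a9, a urate carrier, differed by -0.92 (SE 0.11) in IgGK against WTK and by 0.52 (SE 0.11) in LepK against IgGK. Of 19 other drug, peptide, nucleoside and bile acid transporters, 7 were lower and 4 higher in IgGK than in WTK, among them the urate and drug pump Abcg2, which fell from 453 to 211 CPM (-1.11, SE 0.10). In LepK against IgGK, 2 of the 19 were higher and 1 lower, and in LepK against WTK 1 was higher and 3 lower. Of 13 regulators, 5 were lower and 2 higher in IgGK than in WTK. Hnf4a fell from 978 to 387 CPM (-1.34, SE 0.10) and was still lower in LepK than in WTK (-0.88). In LepK against IgGK edgeR and DESeq2 each called 0 of the 13 regulators, 4 of which had an unadjusted p under 0.05 in edgeR. Hnf4a stood at 530 CPM in LepK, a difference from IgGK of 0.45 (edgeR adjusted p = 0.00736). Ahr (-0.42, edgeR adjusted p = 0.0252) and Stat5b (0.21, edgeR adjusted p = 0.0420) passed the adjusted p as well. Hnf4a, Ahr and Stat5b were not called because they lay under the fold threshold. In lung edgeR called 1 of 18 other transporters lower, and 0 of 8 urate and anion partners and 0 of 10 regulators, of which 1 and 5 had an unadjusted p under 0.05. DESeq2 called 3 of the transporters lower and 1 regulator higher there.

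In the bleomycin lung, LepL against IgGL asked for the effect of LepAb without an uninjured reference. There, 30 of the 52 members passed the filter. The 22 others, among them Slc22a6, Slc22a7 and Slc22a8, reached at most 0.409 CPM in any lung library. Slc22a6 had 0 counts in all 6 lung libraries, which allows up to 3 counts in each, and Slc22a8 had 2 counts in 1 library and 0 in the others. Slco2a1 was the highest member at 46.8 ± 4.55 FPKM in IgGL and 33.9 ± 3.60 in LepL. Next in LepL came Slco3a1 at 11.5 ± 0.876, Slc22a23 at 11.2 ± 0.754 and Abcc5 at 10.9 ± 0.628 FPKM, which differed by less than their SD.

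edgeR called 1 member higher in LepL than in IgGL (3.33% of the 30, against 1.78% of all genes) and 0 lower (2.36% of all genes, with 4.14% called in either direction), and 8 members had an unadjusted p under 0.05, while DESeq2 called 2 higher and 2 lower. The member called was Slco4c1, with 17.1, 14.9 and 11.9 CPM in IgGL and 34.5, 31.6 and 42.3 in LepL. The groups did not overlap, as was the case for 33.3% of all genes tested, called or not. LepL was 2.47-fold higher (1.30, SE 0.17, adjusted p = 0.0327). Leaving out any library but IgGL 1 lost the call, with values from 1.17 to 1.39 and adjusted p from 0.0528 to 0.175. It was also lost with a replicate block (adjusted p = 0.0735) and with glmTreat (adjusted p = 0.134). The sum of 6 alveolar type 2 markers moved with it, from 6736 to 12691 CPM in IgGL to 18276 to 24957 in LepL. That of 6 club and ciliated cell markers went from 7479 to 9526 to 12374 to 24029 CPM. Of these markers edgeR called 3 alveolar type 2 and 2 club and ciliated genes up, and DESeq2 6 and 3. Their part in the result was not tested.

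**Figure D4:**
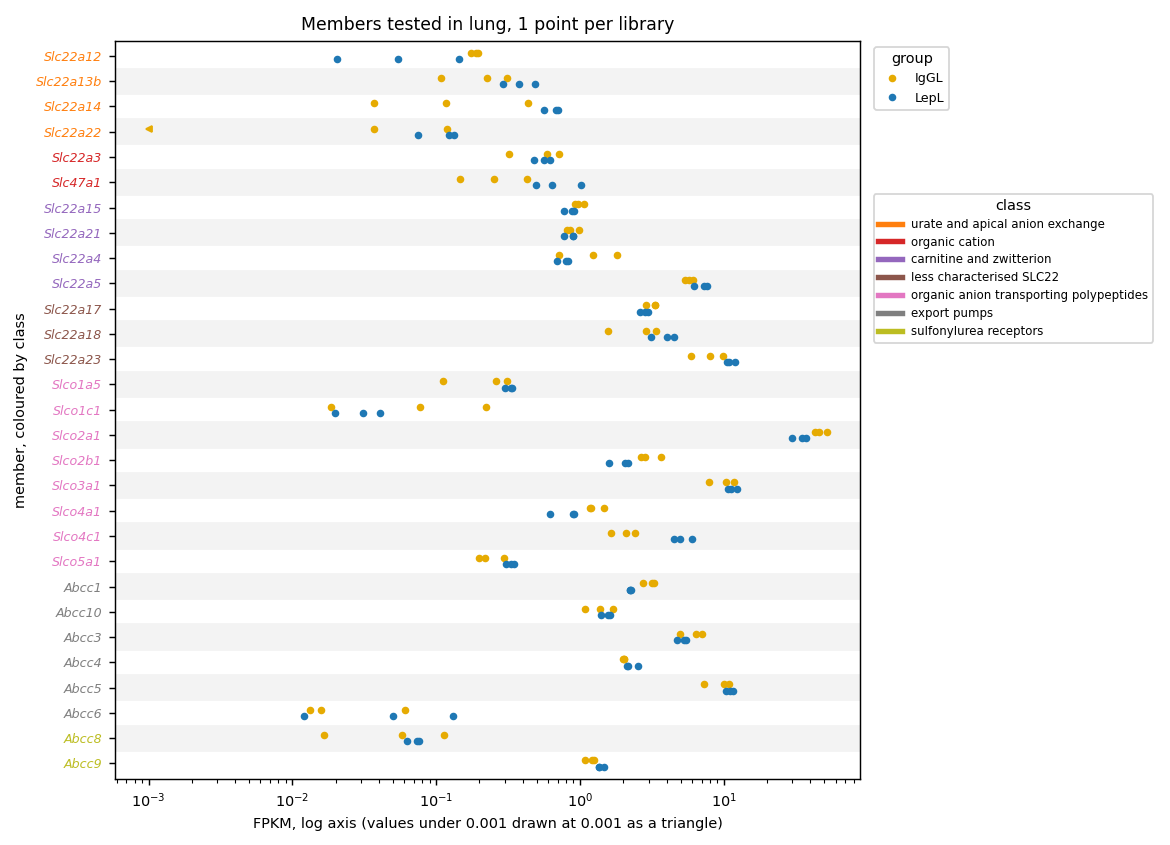
FPKM (log axis) of 29 members tested in lung, 1 point per library in IgGL and LepL, with symbols coloured by class. Slco2a1 lies highest in both groups, and the Slco4c1 points of LepL lie above those of IgGL.

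Other members of the lung were apart between the groups without passing the test. Slco2a1, which clears prostaglandins, had 886, 1027 and 862 CPM in IgGL and 669, 719 and 579 in LepL (-0.50, SE 0.13, adjusted p = 0.0653). Slco2b1 had 24.3, 32.0 and 23.4 CPM against 17.5, 18.3 and 13.4 (-0.70, SE 0.17, adjusted p = 0.0550), and Slco4a1 had 8.03, 10.4 and 8.45 against 6.14, 6.22 and 4.23 (-0.70, SE 0.22, adjusted p = 0.0919). These 3 Slco genes had lower values in LepL, and Slco4c1 a higher one. Abcc1 had 59.6, 72.2 and 71.0 CPM against 48.9, 48.1 and 47.6, a difference past the adjusted p but under the fold threshold (-0.49, SE 0.10, adjusted p = 0.0413). Slc47a1 had 2.08, 0.722 and 1.26 CPM against 2.38, 3.10 and 4.86 (1.35, SE 0.44, adjusted p = 0.0949), and Slc22a23 had 91.0, 74.4 and 56.3 against 96.5, 110 and 99.0 (0.46, SE 0.16, adjusted p = 0.113). Without IgGL 1, 4 members were called higher and 6 lower, among them these 6 genes. The sum of 6 fibroblast markers was lower beside them, from 5067 to 5889 CPM in IgGL to 2294 to 3155 in LepL with 4 called down, and that of 6 neutrophil markers from 150 to 378 to 56.7 to 88.8 CPM, also with 4 called down. Some other sums were higher in LepL. That of 8 macrophage markers went from 3686 to 6536 CPM in IgGL to 7909 to 8169 in LepL. The median log2 fold change of these markers was -0.67, with 1 called down by edgeR. That of 4 skeletal muscle markers went from 198 to 697 CPM to 712 to 1651, with 0 called by edgeR and 2 called up by DESeq2. The part of all these markers in the members' values was not tested.

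The effect of LepAb in kidney was compared with that in lung in 1 fit of the 12 libraries from injured organs. The value tested was the log2 fold change in kidney minus that in lung, which does not rank the sizes of the effects. Of 46 members tested, 3 were called with a positive difference (6.52%, against 3.51% of all genes) and 1 with a negative one (2.17% against 3.62%). In either direction, 7.12% of all genes were called. Slco4c1, called in both organs, had a difference of -0.31 (SE 0.21, adjusted p = 0.379), which does not show that the effects were alike. In the plot of kidney and lung libraries, WTK is shown beside them for reference.

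Slc22a4 differed by 1.31 (SE 0.36, adjusted p = 0.0436), being 0.55 higher in LepK than in IgGK and at 2.63, 4.64 and 6.88 CPM in IgGL against 2.51, 3.01 and 2.92 in LepL (-0.74, SE 0.35, adjusted p = 0.205). Slc22a12 differed by 2.06 (SE 0.50, adjusted p = 0.0303), with 23, 21 and 19 counts in IgGL and 2, 16 and 7 in LepL, near the limit of detection. The lung reads at Slc22a12 also overlap Nrxn2. Slc22a17 differed by 0.45 (SE 0.13, adjusted p = 0.0467), with 21.6, 22.0 and 19.4 CPM in IgGL and 16.9, 18.2 and 19.2 in LepL, and with library-size scaling the difference was 0.20 and not called. Slco5a1 differed by -2.08 (SE 0.51, adjusted p = 0.0319), with 5.60, 3.80 and 4.29 CPM in IgGL and 5.75, 6.25 and 6.47 in LepL. Leaving out 1 library at a time, the call was kept in 6 of 12 fits for Slc22a12, 3 for Slco5a1, 2 for Slc22a17 and 1 for Slc22a4. With a replicate block only Slc22a12 of these 4 was still called (adjusted p = 0.0450), and Slco5a1, Slc22a4 and Slc22a17 had adjusted p of 0.0509, 0.0595 and 0.0741.

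**Figure D5:**
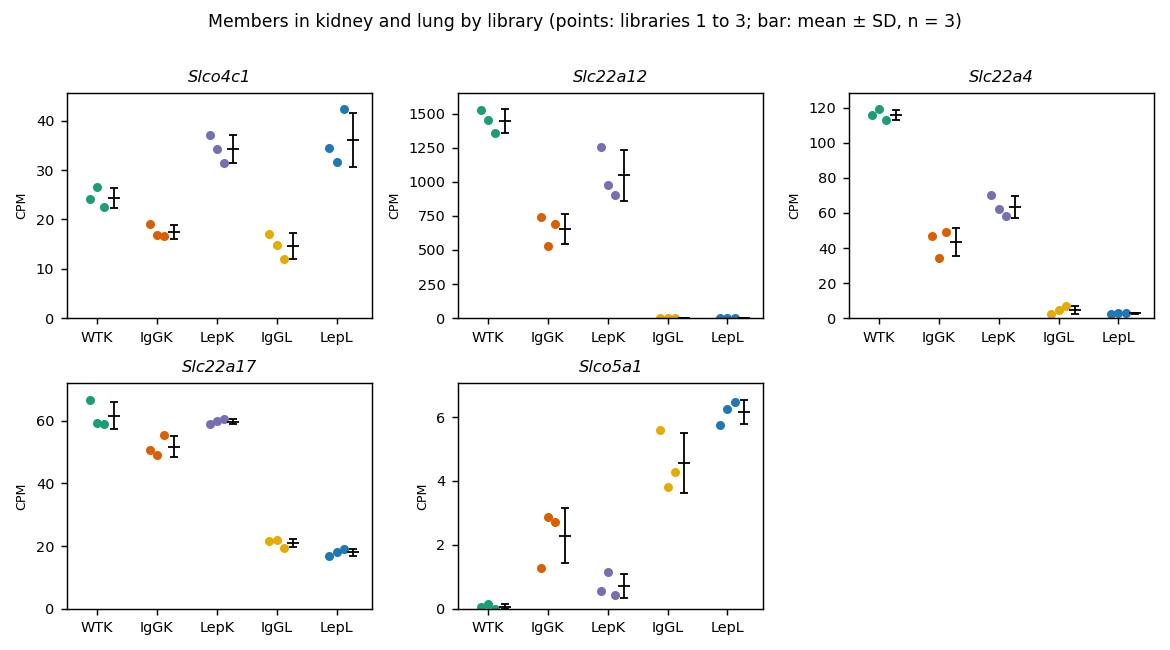
CPM by library for Slco4c1 and the 4 members whose LepAb effect was called different between organs, in WTK, IgGK, LepK, IgGL and LepL, on axes that start at 0, with the mean ± SD (n = 3) as a bar. CPM are scaled within each organ. Slco4c1 is higher with LepAb in both organs, and Slc22a12 and Slc22a4 are far lower in lung than in kidney.

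By place in the genome, 29 of the 52 members lay in 8 groups of neighbours of 1 family, with successive gene starts at most 500 kb apart. In the chromosome 19 group of 8, Slc22a19, Slc22a28, Slc22a30, Slc22a8 and Slc22a6 were called lower in IgGK than in WTK, Slc22a26 and Slc22a29 were not called and Slc22a27 was not tested. In the chromosome 6 group of 6, Slco1a1, Slco1a4 and Slco1a6 were called lower, Slco1b2 was not called, and Slco1c1 and Slco1a5 were not tested. On chromosome 17, Slc22a3 was called higher near Slc22a2, which was called lower. On chromosome 1, Slco4c1 lay beside Slco6c1, which had 0 counts in all 9 kidney libraries.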

How the data were processed

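The deposited table holds, for each gene and library, raw read counts and FPKM that the authors' sequencing service (Novogene) made from poly(A)-selected, non-directional libraries, so that reads of overlapping genes on opposite strands cannot be separated. The aligner and counter are not given in the sources used here, and the submitters' processing notes name GRCm39 (mm39) and DESeq2. The FPKM deposited by the authors were divided by depths that are 1.02 to 1.46 times the count totals. The table's own columns of group means, fold changes and p-values were not used. A line in the sample descriptions that names a column disagrees with the other labels and was not used.

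Counts were analysed in R 4.3.3 with edgeR 4.0.16 (filterByExpr with a minimum count of 10 and a minimum total of 15, TMM scaling, glmQLFit and glmQLFTest), in 1 fit of 9 kidney libraries, 1 of 6 lung libraries and 1 of the 12 libraries from injured organs for the difference between organs. Genes tested numbered 19593, 19617 and 21488, and p-values were adjusted over all of them by the Benjamini-Hochberg method. CPM are scaled by TMM factors computed within each organ, from the kidney fit and the lung fit separately. A gene was called at an adjusted p under 0.05 and an absolute log2 fold change over 0.5, or at the adjusted p alone for the difference between organs. The SE is the size of the log2 fold change over the square root of F. The procedure was tested on simulated data.

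Members described library by library were Slc22a8, Abcc6, those called in LepK against IgGK, in lung or between organs, and the 10 with the largest change in IgGK against WTK at a mean of at least 1 CPM; others were added after their values were seen. The members, classes and lists were chosen with earlier results of these data known, and Slc22a13b was placed beside Slc22a13 after the table was read. No source says more on the libraries than 3 mice per group, and p-values measure the spread between them. Replicates of a group differed by a chi-square of 7.15 to 98.6 per gene, so none was a duplicate. Whether replicate numbers pair the libraries is not known. A single count is worth 0.0257 to 0.0386 CPM. The alternatives were RLE and library-size scaling, DESeq2 1.42.0, other filters, glmTreat, no fold threshold, 2-group fits, a replicate block and leaving out libraries. Promoters and transcripts came from RefSeq (GRCm38.p6) and GENCODE M21 and positions from the table, and the builds were not mixed. Some items are counted in totals but not reported here by name.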

Additional observations from a re-analysis of the deposited data

Results flagged for a closer look

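The LepAb effect was called different between kidney and lung by edgeR's interaction test for 4 of the 46 members tested, while 7.12% of all genes tested were called, so the members' share is near the background. The difference, kidney minus lung on the log2 scale, was 2.06 for Slc22a12 (adjusted p = 0.0303), 1.31 for Slc22a4 (adjusted p = 0.0436), 0.45 for Slc22a17 (adjusted p = 0.0467) and -2.08 for Slco5a1 (adjusted p = 0.0319). All have adjusted p close to the threshold. Slc22a12 and Slco5a1 have few counts in one organ, and the lung effect of none of them was called on its own.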

How the results depend on the processing

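No member called in a comparison changed direction under any alternative run. Abcc4, not called in LepK against IgGK, ranged from -0.28 to 0.08 (the latter without LepK 1) when 1 library was left out and reversed to 0.16 with IgGK 3 as the sole IgGK library, a fit added after the data were seen. RLE scaling, a mean of at least 1 CPM and 2-group fits kept every count of called members within 1.5 times. Library-size scaling gave 11 higher in LepK against IgGK, and 14 higher and 8 lower in LepK against WTK. DESeq2 gave 2 higher and 2 lower in lung and 7 different between organs, and no filter gave 3, 1 and 8. Without a fold threshold 1 member was lower in lung. glmTreat gave 4 higher and 0 lower in LepK against IgGK, 5 higher in LepK against WTK and 0 higher in lung. With IgGK 3 as the sole IgGK library, assumed to vary like the others, 10 members were higher and 0 lower in LepK against IgGK. Leaving out 1 library at a time gave 12 to 19 higher and 1 to 3 lower in LepK against IgGK, 0 to 4 higher and 0 to 6 lower in lung and 0 to 7 different between organs.

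The correlations of same-numbered libraries were 0.23, 0.22 and -0.05 between LepK and IgGK. There, LepK 1 with IgGK 2 had -0.26 and LepK 2 with IgGK 1 had -0.23. Same-numbered values were 0.06, -0.02 and -0.01 between IgGK and WTK and 0.05, -0.04 and 0.01 between LepK and WTK. Between LepL and IgGL they were -0.05, 0.12 and -0.10. Correlations of values centred on 3 libraries per group cannot settle whether replicate numbers pair the libraries. The replicate block left 10 members higher and 22 lower for IgGK relative to WTK, 18 and 3 for LepK relative to IgGK, 8 and 17 for LepK relative to WTK, 0 higher and 0 lower in lung and 1 different between organs. The causes of these changes were not tested. Depth limits the members under about 1 CPM, Slco5a1 in WTK and Slc22a12 in lung most.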
